A study of Homo sapiens with 12 samples.

Results

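The genes described here had an mRNA in every library of the sensitive cells of the glioblastoma line U118 and almost none in any library of the resistant cells of that line. They were chosen on their level in TPM, a relative measure of transcript number that divides reads by transcript length and sums to one fixed total for each library. A gene was taken when it was protein-coding, stood at 1 TPM or more in all 3 U118 sensitive libraries and stood under 0.1 TPM in all 3 U118 resistant libraries. Of 19762 protein-coding identifiers, 11667 met the first condition and 309 of these (2.65%) met the second. After 105 of the 309 were left out by name, 97 of them ZNF zinc finger genes, 204 genes remained of the 11226 expressed genes (1.75%) that no name removed. The other 11022 expressed genes are used below only for comparison.

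U87 and U118 are established human lines derived from glioblastoma, a malignant brain tumour, and temozolomide (TMZ) is the alkylating drug used against it. Per the methods of the study, cells of both lines were depleted of CD133+ and CD15+ cells with magnetic beads and grown with serum and the growth factor BMP2, so all 4 groups share that history. The sensitive groups are the control cells, and the resistant groups are the aggregation cells that grew out after weeks of continuous TMZ at 50 µM. Each group has 3 mRNA-seq libraries, 12 in all, and nothing in the sources says that these came from separate cultures, so an error or a p-value given here measures the spread between libraries only. How many aggregates, or founder cells, a resistant library represents is not given in the sources used here.

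A cell line keeps a particular set of tissue-specific genes on or off through many divisions, by means of its transcription factors and of marks on its DNA and histones. Developmental transcription factors, guidance and adhesion molecules of neurons and secreted signals of the Wnt and BMP pathways are among the genes that differ most between tumours of one kind. Cancer-testis genes, which are normally active in germ cells and held silent elsewhere by methylation of their promoters, are a well-known group that tumours switch on in a patchy way.

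Before the results, the state of the libraries has to be given. Over 16178 genes at 1 TPM or more in at least 3 of the 12 libraries, with the 204 genes removed, the rank correlation (Spearman) of a U118 resistant library with a U87 library was 0.894 to 0.913, above its 0.817 to 0.849 with a U118 sensitive library. Within groups it was 0.959 to 0.988. These values describe libraries that share genes and processing and carry no test. Likewise, of 104 protein-coding genes that were under 0.1 TPM in all 3 U118 sensitive libraries and at 1 TPM or more in all 6 U87 libraries, 74 (71.2%) stood at 1 TPM or more in all 3 U118 resistant libraries. The libraries labelled U118 resistant thus ranked their genes closer to U87 than to the U118 sensitive libraries, and the cause was not tested. U118 resistant replicate 1 stood apart from replicates 2 and 3, with 15193 genes at 1 TPM or more against 13270 and 13545. The mitochondrial genome gave between 7.42% and 29.9% of a library's TPM. The astrocyte markers GFAP, S100B and AQP4 were at or near 0 in all of them, while VIM and CD44 were high. OLIG2 stood at 0.0524 TPM or less in U118 sensitive, 0.57 to 1.05 TPM in U118 resistant and 1.45 to 4.45 TPM in U87 libraries. SOX2 stood at 0.328 to 0.55 TPM, at 0.0253 to 0.059 TPM and at 0 in the same order. NES stood at 5.76 to 7.57 TPM in U118 sensitive and 10.4 to 24.1 TPM in U118 resistant libraries (log2 fold change 0.98). In U87 its log2 fold change was 0.51. Of these 8 markers, none of 3 tested was called in U118 and none of 4 in U87. Fibroblast markers fell in U118, with 4 of 5 tested genes called lower, beside 26.6% of all genes tested in U118, and a summed level of 492 to 525 TPM in sensitive and 126 to 268 TPM in resistant libraries. In U87 all 4 tested genes of that list were called higher in resistant cells, beside 3.03% of all genes (52.3 to 57.8 TPM against 137 to 158 TPM, summed). Epithelial markers summed to 1.60 to 2.55 TPM in U118 sensitive and 10.7 to 19.6 TPM in U118 resistant libraries. In U118 1 of 2 tested genes was called higher, beside 8.64% of all genes. It was KRT8, the highest of the list, at 0.853, 1.75 and 1.15 TPM in sensitive and 16.3, 8.35 and 9.59 TPM in resistant libraries. EPCAM and CDH1 were under 1 TPM in every library of both lines. In bulk RNA, fewer cells of one type and less RNA per cell cannot be told apart, and the part of these markers in the results below was not tested. Endothelial and immune markers summed to at most 1.20 TPM in every library.

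The 204 genes together held 2593 to 2656 TPM in each U118 sensitive library and 1.62 to 2.91 TPM in each U118 resistant library. That contrast was used to choose them, so the U118 values are a description and carry no test. Most were expressed at a low level: the median of their means in U118 sensitive was 4.11 TPM, against 24.3 TPM for all expressed genes. Between 1 and 2 TPM lay 42 of them, between 2 and 5 TPM 72, between 5 and 20 TPM 58, and at 20 TPM or more 32. In the resistant libraries 107 were listed at 0 in all 3, and the others had traces. Traces above 0 were found for 75 genes in resistant replicate 1, 40 in replicate 2 and 57 in replicate 3. The median ratio of SD to mean over the 3 sensitive libraries was 17.4%. Because TPM keeps no read counts, the depth is unknown and no detection limit can be set for a value listed at 0.

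**Figure D1:**
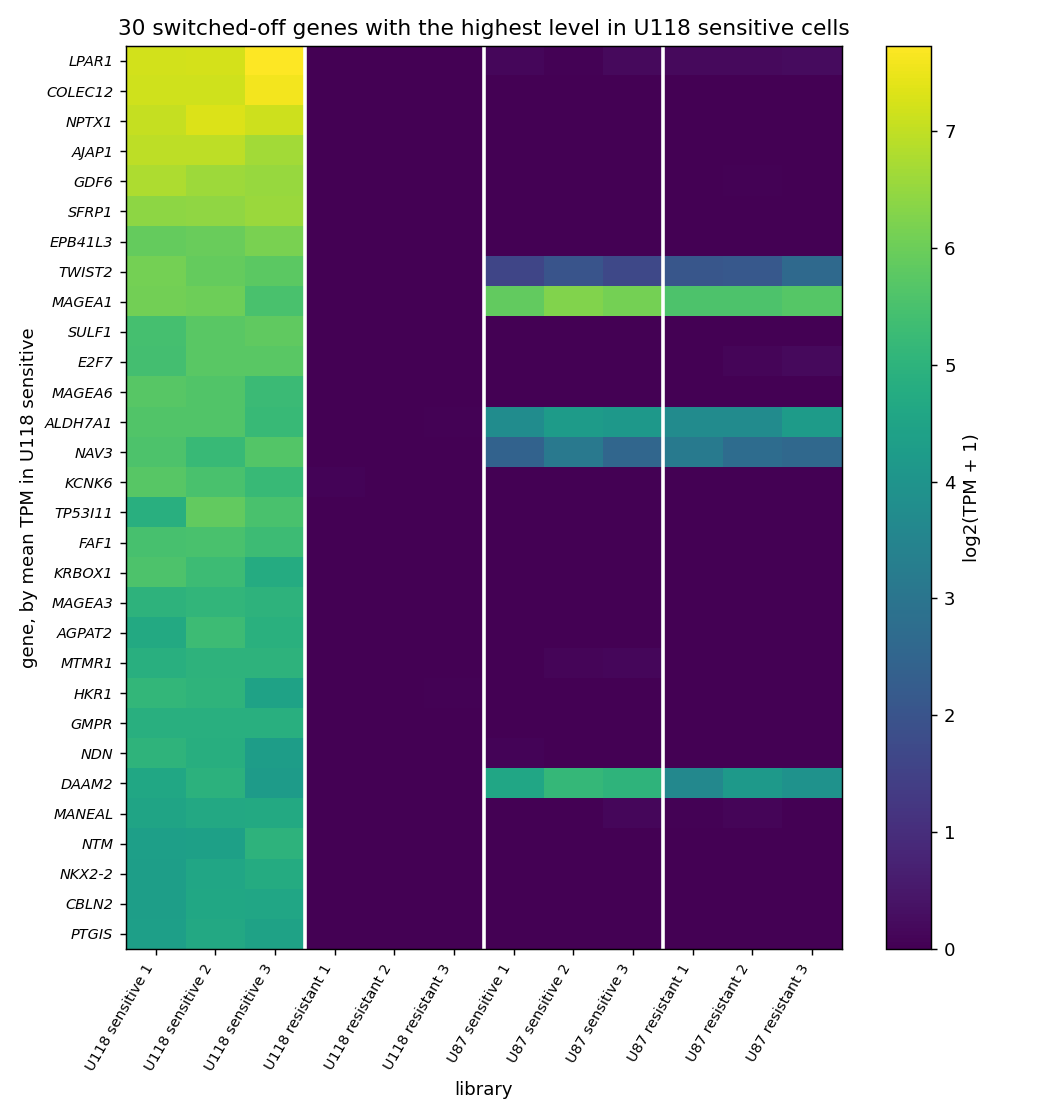
Heat map of log2(TPM + 1) in the 12 libraries (columns, white lines between groups of 3) for the 30 switched-off genes with the highest mean TPM in U118 sensitive cells (rows). All 30 are dark in the U118 resistant columns by the rule that chose them, and 5 of them (TWIST2, MAGEA1, ALDH7A1, NAV3 and DAAM2) stand at 2.06 TPM or more in every U87 column.

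Receptors and their partners made up 17 of the genes and included both with the highest level. LPAR1 (ENSG00000198121, chromosome 9: 110873263 to 111038458, GRCh38), a G protein-coupled receptor for lysophosphatidic acid, stood at 147, 148 and 211 TPM in the U118 sensitive libraries and was listed at 0 in all 3 resistant ones. COLEC12 (ENSG00000158270, chromosome 18: 316740 to 500722), a scavenger receptor of the collectin family, stood at 142, 143 and 193 TPM in sensitive and at 0.019, 0 and 0 TPM in resistant libraries. Sensitive replicate 3 was the highest library for both genes, and no resistant library came near any sensitive one. TNFRSF11A, the receptor RANK, followed at 11.9 to 15.7 TPM. The remaining receptors were lower, among them PTGFR for prostaglandin F, CHRM3 for acetylcholine, the phagocytic kinase MERTK, the ephrin receptor EPHA5 and KDR, a receptor for VEGF, which at 1.08, 1.11 and 1.51 TPM was close to the threshold.

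Promoter sequences of these receptors are shown because the genes with the highest level differed in CpG content, the substrate of DNA methylation. The sequences are those of RefSeq on GRCh38.p14, each a window of 150 bases on the gene's strand that ends 50 bases before the start annotated by RefSeq, with CG pairs in capitals. RefSeq starts need not equal the GENCODE gene ends printed here, and for 109 of the 161 members with a promoter bases just after the RefSeq start were found near the start of a GENCODE transcript of the gene. The LPAR1 window is chr9:111039049-111039198 (minus strand) and the COLEC12 window is chr18:500752-500901 (minus strand).
LPAR1: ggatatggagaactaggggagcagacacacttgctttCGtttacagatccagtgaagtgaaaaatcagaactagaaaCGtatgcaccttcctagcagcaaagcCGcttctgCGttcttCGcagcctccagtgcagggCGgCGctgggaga
COLEC12: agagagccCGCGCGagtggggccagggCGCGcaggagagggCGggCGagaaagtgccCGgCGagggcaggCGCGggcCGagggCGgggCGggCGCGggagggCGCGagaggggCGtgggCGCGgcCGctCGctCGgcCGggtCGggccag
The LPAR1 window holds 7 CG pairs and the COLEC12 window 26. Over the whole RefSeq window of 300 bases the counts were 16 and 49, against a median of 14 over 35116 promoters, and 98.4% of those had fewer than COLEC12. A promoter was found for 161 of the 204 genes (78.9%), too few for a summary over all of them. Methylation was not measured, and the letters say nothing of the state of the DNA.

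Secreted signals and their modulators made up 14 of the genes. NPTX1, a neuronal pentraxin that gathers glutamate receptors at synapses, stood at 133, 158 and 139 TPM in U118 sensitive and at 0.0145, 0 and 0.0114 TPM in resistant libraries. GDF6, a ligand of the BMP family, stood at 108, 96.5 and 91.7 TPM and then was listed at 0 throughout. SFRP1, a secreted inhibitor of Wnt ligands, stood at 84.6, 86.7 and 93.2 TPM and was also listed at 0 in all 3 resistant libraries. The sensitive libraries were close together for all 3 genes. The Wnt pathway gave 2 further members, the ligand WNT9A (8.89 to 15.9 TPM) and RSPO2, which enhances Wnt signals (1.52 to 2.95 TPM). SULF1, a sulfatase that trims heparan sulfate outside the cell, stood at 42.7 to 56.5 TPM. HHIP, which binds and dampens hedgehog ligands, the chemokine CXCL12, the guidance cue SLIT2, the vasoconstrictor EDN1 and IGFBP5, which binds insulin-like growth factors, lay between 1.35 and 3.63 TPM.

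Adhesion molecules and organizers of synapses made up 21. AJAP1 (ENSG00000196581, chromosome 1: 4654732 to 4792534), a membrane protein of adherens junctions, stood at 122, 125 and 100 TPM and was listed at 0 in the resistant libraries. NTM, a neuronal adhesion protein of the immunoglobulin family, stood at 19.5, 19.8 and 30.7 TPM, and NCAM2 at 16.5, 9.18 and 18.2 TPM. Sensitive replicate 3 was the highest for both genes, and the lowest NCAM2 value was in replicate 2. SLITRK genes, which encode neuronal transmembrane proteins with leucine-rich repeats, gave 5 members (SLITRK1, 2, 4, 5 and 6), with SLITRK1 the highest at 10.5, 13.3 and 12 TPM. Cadherin and protocadherin genes gave 4 of 36 expressed, namely CDH6, CDH10, PCDH18 and PCDHB2.

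Channels and transporters numbered 9, and 5 of these were potassium channels of 47 expressed channel genes. KCNK6, a background potassium channel, stood at 51.3, 44.3 and 35.9 TPM, and KCNF1, KCNQ5 and KCNK2 lay between 11.6 and 20.7 TPM. Matrix genes numbered 7 and included COL4A1, a collagen of basement membranes, at 8.31, 9.08 and 8.59 TPM in sensitive and 0.0342, 0 and 0.0215 TPM in resistant libraries. The cell surface proteoglycan GPC4 and HS6ST2, which sulfates heparan sulfate, stood at 13.9 to 16.0 and 16.0 to 17.7 TPM. They are neighbours on the X chromosome in the order of expressed genes.

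Transcription factors and co-regulators of development formed the largest named role, with 30 genes. In families of such factors searched by gene name (FOX, IRX, LHX, NKX, SOX, TBX and others), 13 of 74 expressed genes (17.6%) were switched off, beside 1.75% of all expressed genes. HOX genes were left out by name, so they are not among the 74. None of them met the thresholds, so any expressed HOX gene would have lowered the share. TWIST2, a basic helix-loop-helix factor of mesenchyme, stood at 68.4, 58.7 and 54.4 TPM in U118 sensitive and was listed at 0 in the resistant libraries. E2F7, a repressor of cell cycle genes, stood at 41.5, 53.3 and 52.7 TPM and was likewise listed at 0. NKX2-2, a homeobox factor of the ventral neural tube and of oligodendrocytes, stood at 19.2, 23 and 26.3 TPM. Factors at lower levels included PRRX2, IRX1, MEOX2, EN1, LHX2, SOX11, FOXL2, FOXQ1, TBX20 and NKX6-1, all between 1.02 and 20.4 TPM in every sensitive library. KRBOX1, HKR1, ZIK1, ZFP28, ZFP30 and ZFP82 are zinc finger or KRAB genes without the ZNF prefix. KRBOX1 was the highest of these at 46.6, 38.7 and 26.1 TPM, but its model overlaps the read-through gene AC092042.3, so that reads of the pair may not be separable.

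Enzymes of metabolism numbered 23. ALDH7A1, an aldehyde dehydrogenase of lysine breakdown, stood at 48.3, 48.3 and 36.0 TPM in sensitive and at 0, 0 and 0.0348 TPM in resistant libraries. AGPAT2, which makes phosphatidic acid, stood at 25.1, 38.6 and 28.8 TPM, and GMPR, which turns GMP into IMP, at 28.2, 28.6 and 28.5 TPM. PTGIS and PTGS1, the prostacyclin synthase and cyclooxygenase 1, were both among the members, at 19.6 to 24.4 and 3.02 to 4.26 TPM. Signalling, scaffold and cytoskeletal genes numbered 25. They were led by EPB41L3, a membrane skeleton protein of the band 4.1 family, at 58.6, 61.0 and 71.1 TPM, by NAV3, a neuron navigator protein, and by FAF1, a ubiquitin-binding factor that associates with the death receptor FAS. TP53I11, whose name records its induction by p53, spread widely between the sensitive libraries, at 28.1, 57.1 and 44.4 TPM.

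The cancer-testis families were the family with the highest share of switched-off genes of those examined. Of 21 expressed genes of these families, 9 (42.9%) met the rule, all on the X chromosome. MAGEA1 stood at 66.8, 64.1 and 44.5 TPM in U118 sensitive, MAGEA6 at 51.6, 48.3 and 37.4 TPM and MAGEA3 at 30.8, 32.7 and 31.1 TPM. These genes and MAGEC1, MAGEC2, MAGEA2, MAGEA2B, CSAG2 and CSAG3 were listed at 0 in all 3 resistant libraries. MAGEA2 and MAGEA2B, MAGEA3 and MAGEA6, and CSAG2 and CSAG3 are near-identical pairs, so the division of reads within each pair is uncertain. The same holds for POTED, TPTE, TUBA3C and HIST1H2BL, which have close copies elsewhere, and FOXL2 and FOXL2NB are adjacent genes whose reads may not be separable. The RefSeq promoters of MAGEA3 and MAGEA6 were the same in 300 of 300 bases. The window at MAGEA3, chrX:152698594-152698743 (plus strand), is printed with CCGGAA in capitals, the core letters bound by ETS factors, and it equals the window at MAGEA6, chrX:152769740-152769889 (minus strand).
MAGEA3: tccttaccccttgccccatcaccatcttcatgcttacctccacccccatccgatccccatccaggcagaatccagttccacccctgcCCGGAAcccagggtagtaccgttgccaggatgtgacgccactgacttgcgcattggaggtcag
CCGGAA or its reverse complement TTCCGG stood in 17.2% of all RefSeq promoters of 300 bases, and no other motif was searched.

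The genes lay on every autosome and on the X chromosome. The X chromosome held 25 of 402 expressed genes (6.22%), chromosome 18 held 7 of 161 (4.35%), chromosome 13 held 8 of 197 (4.06%) and chromosome 21 held 4 of 113 (3.54%). The shares of the other autosomes reached 3.47% at most, on chromosome 4, and the lowest was 0.375% on chromosome 16. On chromosome 19, where 81 of the 97 left-out ZNF genes lie, 9 remained. When expressed genes were put in chromosome order, 158 members had no switched-off neighbour that was a member, and 46 (22.5%) lay in 20 unbroken runs with at least 2 members. The longest run, on chromosome 19 from 36383120 to 37817300, had 25 genes in a row under 0.1 TPM in all resistant libraries, of which ZFP82, HKR1 and ZFP30 are members and 22 are ZNF genes.

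On chromosome 1, DMRTA2 and FAF1 were adjacent with CDKN2C, which the rule leaves out by name, from 50417550 to 50974633. FAF1 stood at 44.0, 44.9 and 38.3 TPM in U118 sensitive and at 0.0109, 0.0110 and 0 TPM in resistant libraries. DMRTA2, a developmental factor, stood at 7.90, 7.15 and 5.47 TPM and was listed at 0. In U87 DMRTA2 was listed at 0 in all 6 libraries, and FAF1 was listed at 0 in 5 and at 0.0144 TPM in resistant replicate 2. The next expressed gene, RNF11, stood at 25.5 to 60.1 TPM in the U118 resistant libraries and at 25.4 to 40.7 TPM in U87, and EPS15 beyond it was expressed in all 12. The 3 adjacent genes were thus at or near 0 together in 9 libraries, while the genes that follow were not. The FAF1 window of 150 bases, chr1:50960318-50960467 (minus strand), holds 13 CG pairs (capitals) and lies between the starts of FAF1 and CDKN2C, which face away from each other.
FAF1: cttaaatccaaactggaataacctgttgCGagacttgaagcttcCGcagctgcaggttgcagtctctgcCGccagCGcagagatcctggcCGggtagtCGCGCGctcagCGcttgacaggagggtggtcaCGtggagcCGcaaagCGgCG
With 26 CG pairs in 300 bases, FAF1 had more than 69.9% of all promoters.

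In the MAGEA cluster on the X chromosome, 6 members lay in 2 runs of 3, from 152698752 to 152718607 and from 152749863 to 152769747. The genes between the runs, CSAG1 and MAGEA12, missed the rule narrowly. CSAG1 stood at 78.9, 94.5 and 96.3 TPM in sensitive and at 0.26, 0 and 0.0801 TPM in resistant libraries, and MAGEA12 at 58.3, 60.1 and 30.4 TPM and at 0.127, 0 and 0 TPM. Their neighbours outside the cluster were on in U118 resistant cells, with GABRQ at 31.8 to 67.9 TPM, CETN2 at 56.6 to 87.8 TPM and NSDHL at 70.2 to 104 TPM. In U118 sensitive cells these genes stood at 8.44 to 8.67, 55.0 to 81.1 and 48.7 to 62.1 TPM. GABRQ and NSDHL were thus higher in every resistant than in every sensitive library. MAGEA1, which lies beyond NSDHL, differed from the cluster in U87, where it stood at 46.1 to 75.4 TPM while all 6 members of the cluster were listed at 0. Other runs joined SLITRK1, SLITRK6 and SLITRK5 on chromosome 13 from 83877205 to 87696272, and MAGEC1, MAGEC2, SLITRK4 and SLITRK2 on the X chromosome from 141903894 to 145829856, next to SPANXD, which the rule leaves out by name. Among pairs were E2F7 and NAV3 on chromosome 12, EXD2 and GALNT16 on chromosome 14 and DAAM2 and MOCS1 on chromosome 6. In U87 NAV3 stood at 4.39 to 7.92 TPM and E2F7 at 0.134 TPM or less, whereas DAAM2 and MOCS1 were both above 1 TPM in all 6 libraries.

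The U87 libraries took no part in the choice of the genes. The U118 resistant libraries that did take part ranked their genes close to U87, as given above, and whether these libraries hold cells of the line they are labelled with was not tested, so the counts below cannot be taken as independent of that likeness. The tables of the lines were normalized separately, and levels are set side by side without a test. Of the 204 genes, 134 (65.7%) were under 0.1 TPM in all 6 U87 libraries, beside 78 of the 11022 other expressed genes (0.708%). Listed at 0 in all 6 were 97 of the 204 and 40 of the others. Seen from U87, 212 expressed genes of U118 sensitive cells were under 0.1 TPM in all 6 U87 libraries, and 134 of these (63.2%) were switched off in U118 resistant cells. Only 16 of the 204 (7.84%) stood at 1 TPM or more in all 6 U87 libraries, against 90.1% of the others.

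The shares differed within each range of level as well. Among genes with a mean of 1 to 2 TPM in U118 sensitive, 66.7% of members and 3.48% of the others were under 0.1 TPM throughout U87. The shares were 59.7% and 2.54% from 2 to 5 TPM, and 67.2% and 0.824% from 5 to 20 TPM. At 20 TPM or more they were 75.0% of 32 members and 0.177% of 6227 others. The share was 90.9% in the X-linked cancer-testis genes (10 of 11), 85.7% in the matrix genes (6 of 7), 76.2% in the adhesion genes (16 of 21) and 71.4% in the secreted signals (10 of 14). Zinc finger and KRAB genes without the ZNF prefix had a share of 77.8% (7 of 9). The share was 66.7% in the developmental factors (20 of 30), 47.8% in the enzymes (11 of 23) and 41.2% in the receptors (7 of 17). Channels and transporters had 66.7% (6 of 9), signalling, scaffold and cytoskeletal genes 64.0% (16 of 25) and genes of no named role 65.8% (25 of 38). The cancer-testis genes include the near-identical pairs named above. Without U118 resistant replicate 1 the rule took 268 genes, of which 58.2% were under 0.1 TPM in all 6 U87 libraries.

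**Figure D2:**
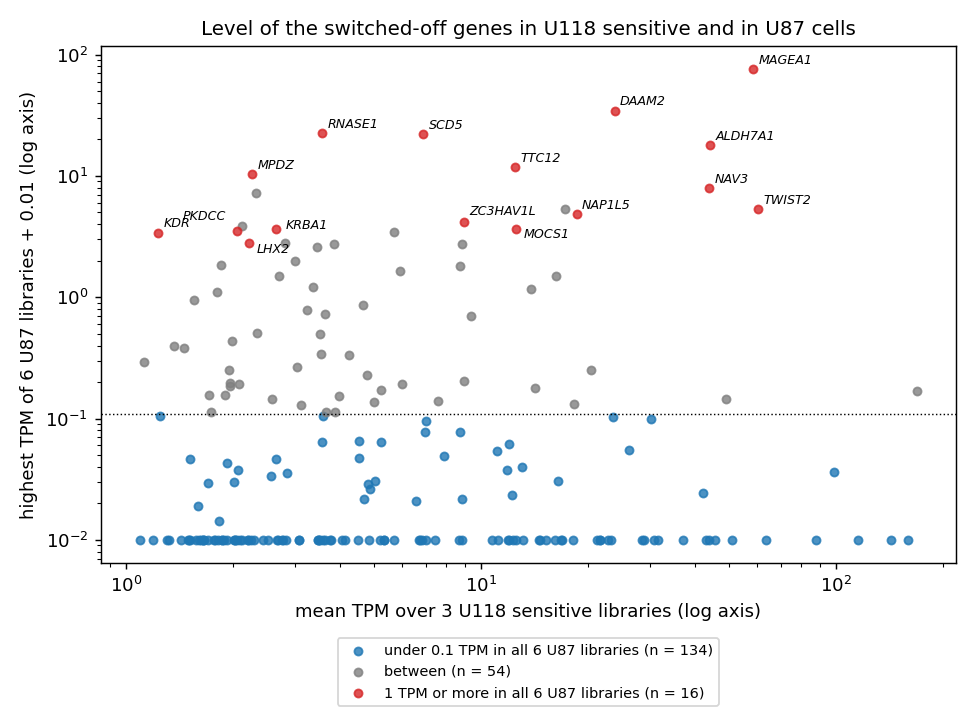
Each point is 1 of the 204 genes, with its mean TPM over the 3 U118 sensitive libraries on the x axis and its highest TPM among the 6 U87 libraries plus 0.01 on the y axis, both logarithmic, and a dotted line at 0.1 TPM. The 134 blue genes are under 0.1 TPM in all 6 U87 libraries at every level in U118, and the 16 red, named genes are at 1 TPM or more in all 6.

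COLEC12, NPTX1, AJAP1, SFRP1 and EPB41L3 were listed at 0 in all 6 U87 libraries, and GDF6 in 5 of 6. LPAR1, the highest gene of the set, stood at 0.0878, 0.0289 and 0.14 TPM in U87 sensitive and at 0.139, 0.143 and 0.158 TPM in U87 resistant libraries. It thus had a trace in U87 where none was listed in U118 resistant cells.

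The 16 genes that U87 expressed throughout were MAGEA1, DAAM2, SCD5, ALDH7A1, RNASE1, TTC12, MPDZ, NAV3, NAP1L5, TWIST2, ZC3HAV1L, MOCS1, KRBA1, PKDCC, LHX2 and KDR. For these the U118 resistant libraries stood apart from both the U118 sensitive and the U87 libraries. MAGEA1 was the highest, at 57.3, 75.4 and 67.8 TPM in U87 sensitive and 46.1, 46.4 and 50.7 TPM in U87 resistant libraries. SCD5, a stearoyl-CoA desaturase, was higher in U87 (17.8 to 22.1 TPM) than in U118 sensitive (6.12 to 7.47 TPM), and was listed at 0 in U118 resistant. MPDZ, a scaffold with many PDZ domains, KDR and RNASE1, a secreted ribonuclease, also stood higher in U87 sensitive than in U118 sensitive. TWIST2, in contrast, stood at 2.06 to 5.29 TPM in U87, well below its U118 sensitive level.

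Whether the genes also moved with resistance in U87 was tested with limma on log2(TPM + 1), over genes with at least 1 TPM in 3 of the 6 U87 libraries. Calls needed an adjusted p (Benjamini-Hochberg, over all 13845 genes tested) under 0.05 and a change of 1 or more, up or down, on the log2 scale. Of all genes, 3.03% were called higher and 7.79% lower in U87 resistant cells. Only 26 of the 204 genes could be tested, and 178 were too low. Of the 26, 2 were called higher and 5 lower, beside 10.8% of all genes called either way. An adjusted p under 0.05 alone was reached by 13 (4 higher and 9 lower), beside 1306 higher and 4107 lower of the 13845 genes. The median log2 fold change of the 26 was -0.10, beside -0.24 over all genes tested. IGFBP5, GALNT5, HES4, GALNT16 and ARHGAP15 passed the filter only through the group in which they were high. Such counts are therefore not support for a response of the set, and no p-value is printed for these genes.

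**Figure D3:**
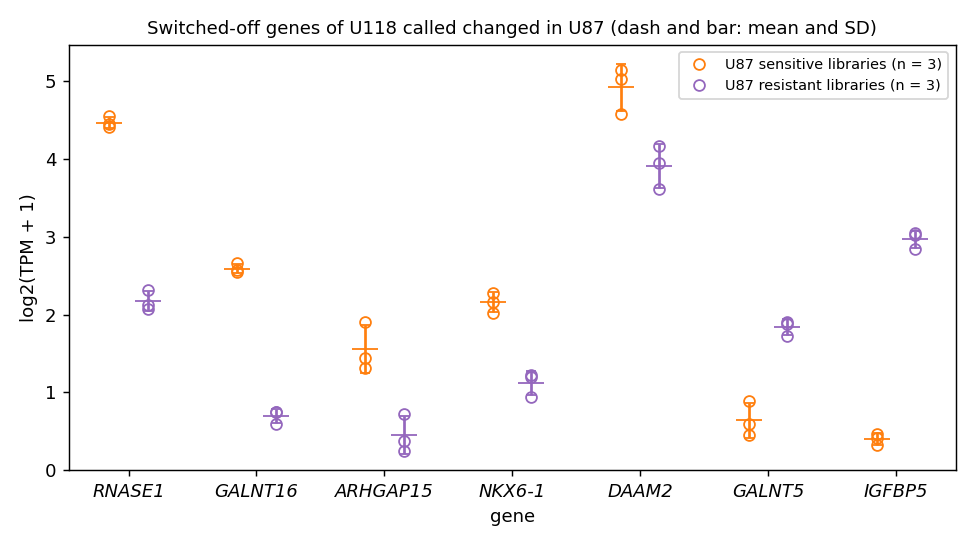
Level as log2(TPM + 1) in U87 of the 7 switched-off genes of U118 that were called changed between U87 sensitive (orange) and U87 resistant libraries (purple), with 1 point for each library and the mean and SD of n = 3 as dash and bar. RNASE1, GALNT16, ARHGAP15, NKX6-1 and DAAM2 are lower and GALNT5 and IGFBP5 higher in the resistant libraries.

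RNASE1 stood at 20.8, 22.4 and 20.3 TPM in U87 sensitive and at 3.36, 3.98 and 3.21 TPM in U87 resistant libraries. Its log2 fold change was -2.30 ± 0.13 (SE, limma adjusted p = 8.18e-05). GALNT16, an enzyme that starts O-glycosylation, stood at 5.33, 4.84 and 4.95 TPM and at 0.685, 0.678 and 0.514 TPM. Both genes thus fell in U87 resistant cells but were not lost there. The log2 fold change of GALNT16 was -1.89 ± 0.13 (SE).

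IGFBP5 stood at 0.248, 0.327 and 0.383 TPM in U87 sensitive and at 7.10, 6.17 and 7.25 TPM in U87 resistant libraries, a log2 fold change of 2.57 ± 0.14 (SE). In U118 it was at 2.12, 2.32 and 2.53 TPM in sensitive and at 0.0597, 0.0442 and 0.0311 TPM in resistant libraries, a direction fixed by the rule that chose it. GALNT5, of the same enzyme family as GALNT16, stood at 0.364, 0.846 and 0.507 TPM and rose to 2.30, 2.75 and 2.69 TPM in U87 (log2 fold change 1.20 ± 0.16, SE). DAAM2, a formin of Wnt signalling, fell from 23, 34.6 and 31.7 TPM to 11.2, 17.0 and 14.4 TPM (log2 fold change -1.01 ± 0.20, SE, limma adjusted p = 0.00795). Its call was lost without U87 sensitive replicate 2 (-0.90), sensitive replicate 3 (-0.96) or resistant replicate 1 (-0.86), and with TPM recomputed without mitochondrially encoded genes (-0.89). NKX6-1, a homeobox factor of motor neurons and beta cells, differed by -1.04 in log2 (adjusted p = 0.00229 in limma), and ARHGAP15, a Rac regulator, by -1.11. The first call was lost without U87 sensitive replicate 1 (-0.97) or resistant replicate 3 (-0.95) and the second without sensitive replicate 2 (-0.93). These values lie just short of the fold threshold. Under median-ratio scaling, which moves the median of all genes from -0.24 to -0.01, all 3 also fell short, at -0.76 for DAAM2, -0.86 for NKX6-1 and -0.98 for ARHGAP15.

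MAGEA1, TTC12, ZC3HAV1L and KDR were lower and MOCS1 higher in U87 resistant libraries with an adjusted p under 0.05 but a fold change short of the threshold. SCD5, ALDH7A1, NAV3 and MPDZ overlapped between the U87 groups, with log2 fold changes between -0.24 and 0.13 and limma adjusted p-values from 0.481 to 0.979.

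Genes that write, read or remove repressive marks on DNA and histones were examined as a list of 44, of which 42 were tested in U118. No values were found under the symbol TASOR, so it was not examined, and TET1 was under 1 TPM in every library. In U118 resistant cells 12 of these (28.6%) were called lower, close to the 26.6% of all 15527 genes tested (35.3% in either direction). None was called higher by limma, beside 8.64% of all genes. Those called lower were DNMT1, DNMT3A, DNMT3B, UHRF1, TET2, SUZ12, EED, EHMT2, CBX3, CBX5, HDAC1 and ATRX. Of these, DNMT3A (0.344 to 0.703 TPM) and TET2 (0.707 to 0.936 TPM) were under 1 TPM in every U118 resistant library. Both passed the filter only through the sensitive libraries in which they were high, so their calls are not support for a change. DNMT1, which keeps DNA methylation through replication, stood at 219, 241 and 229 TPM in U118 sensitive and at 109, 94.3 and 92.3 TPM in resistant libraries, a log2 fold change of -1.21 beside a median of -0.52 over all genes. Under median-ratio scaling, which moves that median to -0.02, 4 of the 42 were called lower, beside 12.9% of all genes. In U87, where 41 were tested, SUV39H1, a histone H3 lysine methyltransferase, was the 1 gene called lower (-1.64, limma adjusted p = 0.000198). The share of all genes called lower in U87 was 7.79%. None of the 41 was called higher, beside 3.03% of all genes.

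At the edges of the rule, PRTG, POTED and FOXQ1 were nearest inside, each with a lowest sensitive value of 1.02 TPM, and GALC (0.97 TPM) and LSAMP (0.967 TPM) were among the nearest outside. On the other threshold SYPL2 (0.0988 TPM) and SCARF2 (0.0981 TPM) had the highest resistant values inside. CCNJL (0.103 TPM) and PDGFRA (0.105 TPM) were among the nearest outside. PDGFRA, a receptor tyrosine kinase often amplified in glioblastoma, stood at 71.8 TPM or more in the sensitive libraries and so would rank among the highest genes of the set. A further 169 expressed genes had a highest resistant value of at least 0.1 and under 0.5 TPM, and 162 of at least 0.5 and under 1 TPM, so the set is the far end of a range.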

How the data were processed

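Libraries were grouped by the line, phenotype and replicate number in the sample labels. The authors deposited 1 table of TPM values for each line, with 58174 Ensembl identifiers each. Per the submitters' processing notes, FastQC 0.11.2, Trimmomatic 0.36, HISAT2 2.0, bedtools 2.26.0 and GRCh38 were used. The tool that made the TPM values, the annotation and the use of strand are not given in the sources used here, so overlapping genes may share reads. Biotypes, symbols and positions were taken from GENCODE release 29, which holds 57836 of the identifiers. Symbols of members were grouped into roles by hand after the members were known. The members, lists and tests were chosen with earlier results of these data known.

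Within each line, log2(TPM + 1) was fitted with limma 3.58.1 (R 4.3.3, eBayes with trend, no replicate block) for genes at 1 TPM or more in at least 3 of 6 libraries, with Benjamini-Hochberg adjustment, and the fit was tested on simulated data. Fold changes on this scale understate the change of low genes. With 3 libraries against 3, an exact permutation test cannot go below p = 0.1 and was not used. Runs are members adjacent in the order of expressed genes, with genes left out by name allowed between them only where these were switched off too. Named genes are the 30 highest members, those in runs of at least 3, those called in U87, the 12 highest in U87, the 5 nearest each threshold, and members of the listed families; others were named after their values were seen. Some genes under this rule are not reported here. The alternatives were other thresholds of the rule, pseudocounts, filters and scalings, a replicate block, calls without a minimum fold change and the omission of each library in turn, with the genes tested kept as in the full fit. TPM without mitochondrially encoded genes was added after seeing the data. Tables were joined with pandas 2.3.3 and numpy 2.4.6 in Python 3.11.15, and figures drawn with matplotlib 3.10.9.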

Additional observations from a re-analysis of the deposited data

Results flagged for a closer look

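IGFBP5 and GALNT5 were singled out because they moved in opposite directions in the lines. In U87 both were higher in all 3 resistant than in all 3 sensitive libraries (log2 fold changes of 2.57 and 1.20), while in U118 both were under 0.1 TPM in all 3 resistant libraries and above 2 TPM in all 3 sensitive ones. The U118 direction was fixed by the rule that chose them, the tables were normalized separately, and the difference between the lines was not tested. In U87 both passed the filter on low values only through the resistant libraries, in which they were high.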

How the results depend on the processing

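The number of switched-off genes follows the thresholds: 79 with 5 TPM asked of the sensitive libraries, 373 with under 0.5 TPM and 107 with a listing at 0 in the resistant libraries, and 207 to 268 when 1 library was left out, the highest without U118 resistant replicate 1. Those under 0.1 TPM in all 6 U87 libraries numbered 54 (68.4%) with 5 TPM, 82 (76.6%) with a listing at 0, and 134 to 156 with 1 library left out. Under the 0.5 TPM ceiling the share was 46.4%. Because the rule asks every library to pass, leaving 1 U118 library out could only keep or add genes. Neither the number of switched-off genes nor the number under 0.1 TPM in U87 could fall in those runs.

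In U87, members called higher were 0 with a mean of at least 10 TPM (where fewer genes are tested) and 4 without the fold change threshold. Members called lower were 2 with that mean, 2 with median-ratio scaling, 9 without the threshold and 3 to 5 with 1 library left out (3 without U87 sensitive replicate 2). Of all genes, 175 were called higher and 630 lower with that mean, 663 and 543 with median-ratio scaling, against 419 and 1078 as deposited, and 1306 and 4107 without the threshold. Leaving out 1 library gave 404 to 482 higher and 941 to 1416 lower. Repressive-mark genes called lower in U118 were 4 with median-ratio scaling and 11 to 17 with 1 library left out. In U87 such genes called lower numbered 3 at a pseudocount of 0.1, 12 without the threshold and 1 to 5 with 1 library left out (5 without U87 sensitive replicate 1, 2 without resistant replicate 3), and 1 was higher without the threshold. Median-ratio scaling turned the balance of all calls in U87 from more lower to more higher. None of the 7 members called in U87 changed sign under any alternative run.

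Replicate numbers did not pair the samples: the correlations of same-numbered deviations were 0.139, 0.051 and 0.095 in U118 and 0.011, -0.067 and -0.040 in U87. With the replicate block, 2 members were called higher and 5 lower in U87, and 414 and 1040 of all genes. TPM keeps no depth, so a value listed at 0 has no limit.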
